A study of Mus musculus with 42 samples.

Results

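The 6 arrays described here come from uninjected mouse embryos of the Nanog experiment of the series, 3 collected at 20 h and 3 at 44 h, out of 42 arrays in all. They were chosen by their labels alone, and every gene on the array entered the comparison of the later with the earlier time. The series injected fertilised 1-cell mouse embryos with a morpholino (a synthetic antisense oligonucleotide that blocks an mRNA) against Oct4, Sall4 or Nanog, and collected preimplantation embryos at 20 h and 44 h after injection. Embryos left uninjected were collected at the same hours, and the Nanog experiment also held embryos given a control morpholino whose target sequence does not occur in the mouse.

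Both groups were B6D2F1 embryos grown in human tubal fluid medium under oil, with no morpholino. The labels call them preimplantation embryos and give neither the cell stage nor the number of embryos pooled on an array. The 3 arrays of a group are labelled as biological replicates. RNA was reverse transcribed, amplified and labelled with biotin before it was hybridised, so a level here is an array intensity after amplification. Where embryos divide between the times, fewer cells of a type and less RNA per cell cannot be told apart in such samples.

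A mouse egg is laid down with mRNAs and proteins made during its growth, and the first divisions run on this maternal store. Maternal mRNAs are cleared while the embryo's own genome is switched on, first through a short burst of transcripts at the 2-cell stage and then through genes for protein synthesis, mitochondria and cell adhesion. In the following divisions the blastomeres compact, the outer cells polarise and become trophectoderm, the epithelium that pumps fluid into the blastocyst cavity, and the inner cells give the epiblast and the primitive endoderm.

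The 45101 probe sets gave 18193 genes, of which 15478 passed a filter on low levels and were tested. Median intensity over all probe sets was 193.8 to 227.3 per array. Pearson correlations of the log2 values were 0.916 to 0.936 among the arrays at 20 h, 0.945 to 0.949 among those at 44 h and 0.836 to 0.886 between the times. Of the 20 markers of the egg coat and oocyte secretion on the array, 13 were above the 6-array median of 212 on every array. Of the 19 cumulus and granulosa markers 4 were, and 13 were below it on every array. Their summed intensity was 7306 to 10466 at 20 h and 13316 to 14496 at 44 h, and its largest member was Gja1, a gap junction gene also used by embryos. Of its steroid genes, Star was at 420.0 to 748.4 at 20 h and 804.8 to 1042 at 44 h, Cyp11a1 at 330.5 to 468.5 and 316.4 to 407.1, and Hsd3b1 at 1.0 to 2.0 at both times. Summed intensities of the blood and stroma markers were 3166 to 3725 at 20 h and 4707 to 5024 at 44 h, and those of the sperm markers 3415 to 5198 and 3365 to 5148. The first members of these lists, Cyp11a1, Fshr, Ptprc, Prm1 and Prm2, did not pass the test described below (adjusted p from 0.158 to 0.888). Of 14 cumulus and granulosa markers tested 1 rose, Gja1 (adjusted p = 0.00176), and 1 fell. Over the settings described below these were 1 to 2 rises and 0 to 2 falls. Of 15 blood and stroma markers none was called (0 to 1 rises), nor of 12 sperm markers (0 to 3 rises). Pecam1, the brightest blood and stroma member, was at 561.8 to 1238 at 20 h and 1569.5 to 2522 at 44 h. The part of such cells in the results was not tested.

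Of the 15478 genes tested, 3958 (25.6%) differed between the times at an adjusted p under 0.05, 1437 (9.28%) higher and 2521 (16.3%) lower at 44 h. The test was limma's moderated test on log2(intensity + 16), with Benjamini-Hochberg adjustment over all genes tested. Its p-values measure the spread within groups, pooled over all 42 arrays of the series. Of these, 24 were dimmer, with array medians of 26.1 to 33.3. The p-values thus do not measure the spread of the 6 arrays described here alone. A fit to these 6 arrays alone called 3014 genes, 2682 of them among the 3958. All differences below are differences in log2(intensity + 16), 44 h minus 20 h, and the added 16 makes those of dim genes smaller. For 41.0% of the genes tested the 3 arrays of 1 time did not overlap those of the other, 18.1% above and 22.9% below at 44 h. A permutation test of 3 arrays against 3 cannot give a p under 0.1, so single genes rest on the fit across all arrays.

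The falls were somewhat larger than the rises, with median differences of -1.97 and 1.70 among the called genes. Of the 2521 falls, 1230 were of 2 or more on the log2 scale and 140 of 4 or more. Of the 1437 rises, 556 were of 2 or more and 60 of 4 or more. Genes that rose had a median intensity of 497 at 20 h and 2230.0 at 44 h, and genes that fell went from 2600.0 to 487. The extreme form, a gene above the 75th percentile of intensity (1059.6) on every array at 20 h and below the median on every array at 44 h, was met by 81 genes, and the reverse by 26.

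**Figure D1:**
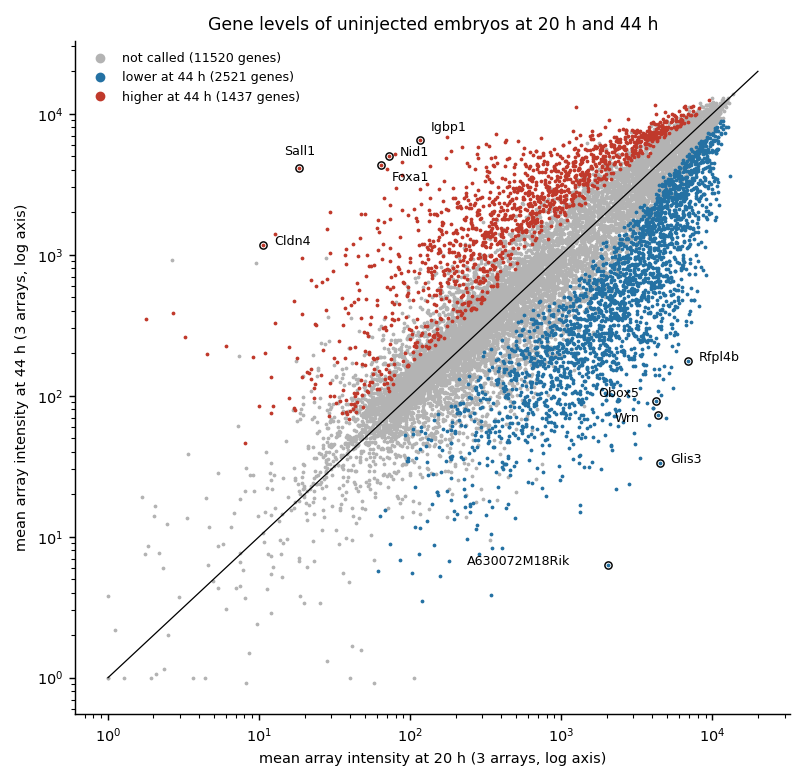
Mean array intensity of each gene tested at 20 h (horizontal, log axis) and at 44 h (vertical, log axis), 3 arrays each, with the 1437 genes that rose in red, the 2521 that fell in blue, the others in grey and the line of equal levels. Glis3 and A630072M18Rik lie farthest below the line among the labelled genes, and Sall1 farthest above it.

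Genes named below are drawn from the 15 largest rises, the 15 largest falls and the largest movers of 52 gene lists, all picked among called genes whose arrays did not overlap between the times, so the lack of overlap is part of the choice. Not all of these movers are printed, and other probe sets are given for some genes only. Of the first 2 members of each list, those tested are given whatever their values. Where a count of a list moved by over 1.5 times, its range over the reported fit and 19 other settings of the processing is given in parentheses. Rises and falls of every list stand against 9.28% and 16.3% over all genes tested.

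Among the largest rises after Sall1 stood genes for a matrix protein, a transcription factor and several enzymes. Nid1 encodes nidogen-1, which links laminin and collagen IV in basement membranes. Its intensities were 33.2, 119.7 and 63.4 at 20 h and 5731, 5599 and 3747 at 44 h, a rise of 5.93 (SE 0.507, adjusted p = 4.05e-10). The dimmest array at 44 h was far above the brightest at 20 h. Other probe sets of Nid1 gave 0.48 to 5.62. Foxa1, a pioneer transcription factor of endoderm-derived organs, was at 28.2, 119 and 46.0 at 20 h and 5097, 3851 and 4120.1 at 44 h, a rise of 5.92 (SE 0.329, adjusted p = 1.06e-13). All 3 arrays at 20 h were below the array median and all 3 at 44 h were above the 75th percentile, and the difference in control-injected embryos was 5.95.

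Igbp1, which binds the catalytic subunit of protein phosphatase 2A, was nearly level within each time, at 114, 116 and 119 at 20 h and 6443, 6792 and 6259 at 44 h. It rose by 5.62 (SE 0.413, adjusted p = 5.76e-11), with other probe sets at -0.09 to 5.43. Ckmt1, the mitochondrial creatine kinase, was at 473, 31.7 and 14.9 at 20 h and 5271, 4518 and 4858 at 44 h. Array 1 at 20 h was well above the other two, and still far below the arrays at 44 h, and the rise was 5.77 (SE 0.900, adjusted p = 1.09e-05). Acadl, the long-chain acyl-CoA dehydrogenase of fatty acid oxidation, was at 27.6, 138 and 99.4 at 20 h and at 4916, 4800.1 and 3885 at 44 h, a rise of 5.62 (SE 0.441, adjusted p = 1.22e-10).

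Gulo encodes the last enzyme of vitamin C synthesis, which mice keep and humans lost. It was at 119, 23.4 and 8.62 at 20 h and 1291, 2305 and 2234 at 44 h, a rise of 5.22 (SE 0.593, adjusted p = 7.44e-08). Its array 1 at 20 h was the brightest of that time. Vnn1, a pantetheinase that recycles vitamin B5 from coenzyme A breakdown, was at 82.3, 321 and 120.0 at 20 h and 7413, 7828 and 5255 at 44 h, a rise of 5.35 (SE 0.478, adjusted p = 9.64e-10). Smpdl3a, a phosphodiesterase, rose by 5.42 (SE 0.420, adjusted p = 1.07e-10), and Plbd1, a lysosomal phospholipase B-like protein, by 5.56 (SE 0.445, adjusted p = 1.81e-10). Rasgrp2, an exchange factor for the small GTPase Rap1, was at only 2.79, 3.60 and 135 at 20 h, with array 3 highest, and at 1844, 927 and 3046 at 44 h (adjusted p = 4.75e-08). Its other probe sets gave 0.33 to 0.78, so this rise rests on 1 probe set. The same holds for Septin8, a filament-forming GTPase, at 5.64 on the probe set used and 0.08 to 1.60 on the others.

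Among the largest falls, Acot3, a peroxisomal acyl-CoA thioesterase, was at 2178, 3033 and 3238 at 20 h and 11.3, 56.2 and 4.06 at 44 h with a difference of -6.36 (SE 0.577, adjusted p = 1.31e-09). The array at 44 h with the most signal held 56.2. Sycp2l, a protein of oocyte centromeres and meiotic chromosome axes, was at 2570.1, 1698 and 2637 at 20 h and 19.8, 25.2 and 20.8 at 44 h, a difference of -5.91 (SE 0.637, adjusted p = 2.92e-08). Its 3 arrays at 44 h were nearly equal and well under the array median.

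Wrn, the RecQ helicase whose loss causes Werner syndrome in humans, was at 3894, 4210.4 and 4940.4 at 20 h and 66.0, 50.7 and 101 at 44 h. It fell by 5.65 (SE 0.732, adjusted p = 6.50e-07), and its other probe sets gave -3.73 to -2.35. Trps1, a GATA-type repressor, had near equal arrays at 20 h (5507, 5348 and 5479.6) and 74.6, 191 and 77.2 at 44 h, a difference of -5.50 (SE 0.690, adjusted p = 3.79e-07). Jade2, a scaffold of histone acetyltransferases, fell by 6.06 (SE 0.713, adjusted p = 1.37e-07) and Stradb, a pseudokinase partner of Lkb1, fell by 5.56 (SE 0.567, adjusted p = 1.07e-08). The second probe set of Stradb gave 0.05. Plek, the pleckstrin of platelets and leukocytes, fell by 5.36 (SE 0.762, adjusted p = 2.79e-06), with its other probe sets at -4.92 to -4.27. Gphn, gephyrin, which makes molybdenum cofactor and anchors receptors at synapses, fell by 5.67 (SE 0.756, adjusted p = 1.02e-06), but its other probe sets ranged from -2.37 to 0.57.

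The lists of egg and maternal genes fell in part and held a few members that rose. Of 20 egg coat and oocyte-secreted genes tested, 10 (50%) fell and 2 (10%) rose, with a median difference of -1.22 against 0.02 over all genes tested. Oosp3, an oocyte-secreted protein, was at 7526, 7403 and 7915 at 20 h and 518, 1340.0 and 599.5 at 44 h, a difference of -3.32 (SE 0.659, adjusted p = 2.70e-04). Its arrays at 20 h were almost equal, and array 2 at 44 h kept more signal than the other two. Oosp1, of the same small family, was at 9074, 9199 and 9668 at 20 h and 2447, 2003 and 1653 at 44 h (adjusted p = 1.03e-04). Zp2, a protein of the zona pellucida, fell from 2929 ± 371 at 20 h to 1073 ± 28.1 at 44 h (SD, n = 3), a difference of -1.43 (SE 0.351, adjusted p = 0.00249). For Zp1, another zona protein, the difference was -1.39 (SE 0.531, adjusted p = 0.053), short of the threshold.

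Kit, the receptor for Kit ligand on oocytes, was at 2330.1, 2583 and 2812 at 20 h and 337, 459 and 802 at 44 h, a difference of -2.33 (SE 0.40, adjusted p = 4.49e-05). Every array at 44 h was below every array at 20 h, and a second probe set gave -2.35. Cd9, the egg tetraspanin needed for sperm fusion, went the other way, at 1021, 529 and 1209 at 20 h and 4245, 4172 and 3434 at 44 h, a rise of 2.16 (SE 0.332, adjusted p = 9.17e-06). Cd9 in control-injected embryos gave 2.53.

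Among 17 genes of the maternal Nlrp family and the subcortical maternal complex, an assembly beneath the egg membrane, 12 (70.6%) fell and 1 rose, with a median of -1.66. Nlrp9c was at 4229, 3831 and 3652 at 20 h and 342, 219 and 185 at 44 h, the largest fall of the list, with a difference of -3.93 (SE 0.252, adjusted p = 2.71e-12). Nlrp4f fell by 2.44 (SE 0.330, adjusted p = 1.29e-06) and Ooep, a core member of the complex, fell from 2764 ± 309 at 20 h to 621 ± 259.6 at 44 h (adjusted p = 0.00137). Nlrp4e spread at 44 h, with 138, 320.0 and 968 against 3448, 3241 and 2912 at 20 h. Array 3 at 44 h was its brightest but still below every array at 20 h (adjusted p = 0.00162).

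Nlrp5, also known as Mater, was at 4256, 4558 and 4828 at 20 h and 1176, 1914 and 3807 at 44 h, a difference of -1.14 (SE 0.316, adjusted p = 0.00684). Its array 3 at 44 h lay close to the range at 20 h, and without array 1 at 44 h the call was lost (adjusted p = 0.099). Khdc3, a partner of Nlrp5 in the complex, was the member that rose, at 239, 334 and 886 at 20 h and 4211, 4885 and 3416 at 44 h. The rise was 3.26 (SE 0.627, adjusted p = 1.84e-04), and Khdc3 gave 3.64 in control-injected embryos.

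Maternal mRNA storage, translation control and decay had 31 members tested, of which 18 (58.1%) fell and 2 rose, with a median of -1.06 (over the settings, 1 to 4 rises and 16 to 18 falls). Dcp2, the enzyme that removes the mRNA cap, was at 4826, 5947 and 5908 at 20 h and 199.7, 359 and 679.9 at 44 h, a difference of -3.86 (SE 0.408, adjusted p = 2.09e-08). A second, dimmer probe set of Dcp2 gave 0.58. Dazl, a germ cell RNA-binding protein, was at 2545, 2660.4 and 3439.6 at 20 h and 162, 142 and 340.0 at 44 h, a difference of -3.74 (SE 0.399, adjusted p = 2.46e-08). Ybx2, the Y-box protein that packs stored mRNA in oocytes, fell from 2061 ± 359 at 20 h to 267 ± 66.7 at 44 h, a difference of -2.89 (SE 0.442, adjusted p = 8.09e-06).

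Cpeb1, the cytoplasmic polyadenylation factor of the oocyte, did not pass the test, at -0.75 (SE 0.583, adjusted p = 0.393). Its paralogue Cpeb2 was at 701, 209 and 178 at 20 h and 4869, 4471 and 5443 at 44 h and rose by 3.97 (SE 0.466, adjusted p = 1.30e-07), with other probe sets at 4.71 to 5.52. The rise of Ddx6, a helicase of P-bodies, was 0.91 (SE 0.253, adjusted p = 0.00736) and was lost without array 3 at 20 h (adjusted p = 0.105), which left 1 rise on the list.

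The list of the Tcl1 family, small proteins that bind the kinase Akt, and of the Akt kinases had 6 tested genes, Tcl1, Tcl1b1, Tcl1b3, Tcl1b4, Akt1 and Akt2, and all of them fell, with a median of -3.81. Tcl1b4 was at 4026, 2531 and 4918 at 20 h and 30.0, 59.0 and 95.8 at 44 h, a difference of -5.67 (SE 0.853, adjusted p = 6.38e-06), and Tcl1b3 at 7438, 5919.9 and 7488 at 20 h and 630.4, 277 and 238 at 44 h (adjusted p = 4.08e-09). Tcl1b1 was at 8099, 7605 and 9427 at 20 h and 591, 917 and 938 at 44 h (adjusted p = 2.52e-07). Tcl1 itself was at 5457, 5349 and 6849 at 20 h and 146, 365 and 186 at 44 h (adjusted p = 2.10e-09).

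Meiotic regulators of the oocyte had 25 members tested, and 11 (44%) fell (over the settings, 0 to 2 rises and 8 to 12 falls). Obox5, an oocyte homeobox gene, was at 4583, 3891 and 4224 at 20 h and 108, 72.4 and 97.0 at 44 h, a difference of -5.30 (SE 0.540, adjusted p = 1.07e-08). Each array at 44 h was below the array median. Wee2, the oocyte kinase that holds meiosis by inhibiting Cdk1, was at 4679, 3992 and 6009 at 20 h and 248, 183 and 379 at 44 h, a difference of -4.14 (SE 0.645, adjusted p = 1.09e-05). Obox3 was bright and even at 20 h (8728, 9214 and 9271) and uneven at 44 h (1079, 852 and 231), with array 3 lowest (adjusted p = 7.44e-08). Mos, the kinase that arrests the mature egg, was dim throughout, at 82.9, 85.8 and 12.1 at 20 h and 174, 53.8 and 84.7 at 44 h, and did not pass the test (adjusted p = 0.247), nor did Fbxo43, an inhibitor of the anaphase-promoting complex, at -1.03 (adjusted p = 0.296). The 1 rise, Ccnb2, a mitotic cyclin, was 1.12 (SE 0.355, adjusted p = 0.018) and was lost on leaving out array 1 or 3 at 20 h or array 1 or 2 at 44 h, with adjusted p up to 0.114.

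Transcripts known from the 2-cell burst fell at 12 of 20 members (60%), with a median of -1.41, and 1 rose (over the settings, 1 to 3 rises and 9 to 14 falls). This list as written held 37 genes, and 17 found no match among the genes read here. The promoters of 3 members that fell are shown with those of 3 mitochondrial genes that rose, because their content of CG differs. They were chosen after their values and letters were seen. Each line gives the last 160 bases before the gene's start, 5′ to 3′ on the strand of the gene, from RefSeq (GRCm38.p6), and capitals mark each CG.
Rfpl4b (chr10:38821780-38821939, minus strand): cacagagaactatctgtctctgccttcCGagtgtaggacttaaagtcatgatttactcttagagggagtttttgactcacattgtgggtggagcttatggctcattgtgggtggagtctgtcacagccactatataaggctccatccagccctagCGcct
Usp17la (chr7:104856856-104857015, plus strand): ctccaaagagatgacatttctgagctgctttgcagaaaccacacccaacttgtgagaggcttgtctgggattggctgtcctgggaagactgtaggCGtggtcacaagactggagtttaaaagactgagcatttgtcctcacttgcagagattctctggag
Zfp352 (chr4:90218660-90218819, plus strand): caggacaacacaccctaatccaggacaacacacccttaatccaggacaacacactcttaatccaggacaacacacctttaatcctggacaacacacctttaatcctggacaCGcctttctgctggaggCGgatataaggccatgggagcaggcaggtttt
Ndufs3 (chr2:90904722-90904881, minus strand): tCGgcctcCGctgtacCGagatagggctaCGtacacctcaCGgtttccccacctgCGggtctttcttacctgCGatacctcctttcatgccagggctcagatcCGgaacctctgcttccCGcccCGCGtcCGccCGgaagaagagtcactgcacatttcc
Mrpl52 (chr14:54426749-54426908, plus strand): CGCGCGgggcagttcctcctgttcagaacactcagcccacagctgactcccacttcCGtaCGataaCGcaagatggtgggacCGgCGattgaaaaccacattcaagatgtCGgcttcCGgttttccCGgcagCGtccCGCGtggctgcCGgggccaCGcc
Mrpl27 (chr11:94653631-94653790, plus strand): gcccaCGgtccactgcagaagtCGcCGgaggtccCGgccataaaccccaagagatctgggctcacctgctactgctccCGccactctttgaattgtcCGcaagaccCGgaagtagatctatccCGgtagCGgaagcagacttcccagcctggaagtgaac

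These stretches held 2 CG in Rfpl4b, 1 in Usp17la and 2 in Zfp352, against 13 in Ndufs3, 16 in Mrpl52 and 9 in Mrpl27. Over the 250 bases before the start, the median number of CG was 2 for the 2-cell list and 10 for the oocyte lists. It was 15 for oxidative phosphorylation, 17 for mitochondrial ribosomal proteins and 14 for all 12367 genes with a promoter. Genes that rose had a median of 15 and genes that fell 16. The letters CCGGAAG, on either strand, were found in 11.7% of all promoters, 14.8% of those of genes that rose and 10.7% of those of genes that fell. They were in 23.1% (15 of 65) of the mitochondrial ribosomal promoters and start 27 bases before the start in Ndufs3, 47 in Mrpl52 and 55 in Mrpl27. Of the other letters searched on both strands, TATAAA was in 7.99% of all promoters, CCAAT in 35.9%, GGGCGG in 53.5%, CACGTG in 7.96% and ATGCAAAT in 1.33%. In genes that rose and genes that fell, CCAAT was in 32.3% and 39.3%, and GGGCGG in 52.0% and 58.8%. TATAAA was in 7.84% and 6.34% of these, CACGTG in 8.97% and 7.89%, and ATGCAAAT in 0.431% and 1.11%. GGGCGG was in 37.1% of the respiratory chain promoters and 13.3% (2 of 15) of those of the 2-cell list. The NRF1 palindrome was in 1.42% of all promoters, 4.84% (3) of those of the respiratory chain list and 4.62% (3) of those of mitochondrial ribosomal proteins. A match of letters is a description and not a bound site.

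Ndufs3, a complex I subunit, rose by 2.31 (SE 0.415, adjusted p = 7.85e-05) and the large subunit proteins Mrpl52 by 2.74 (SE 0.473, adjusted p = 4.61e-05) and Mrpl27 by 2.24 (SE 0.692, adjusted p = 0.0155). Zfp352, a zinc finger gene derived from a retrotransposed copy, fell by 3.07 (SE 0.701, adjusted p = 0.00123).

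Rfpl4b, a RING finger protein, was at 6015, 7326 and 7461 at 20 h and 168, 185 and 176 at 44 h, a difference of -5.17 (SE 0.426, adjusted p = 2.86e-10). The 3 arrays at 44 h were close to each other. Tcstv1, a 2-cell stage gene of unknown role, fell from 5328 ± 164 at 20 h to 1205 ± 138 at 44 h, a difference of -2.14 (SE 0.290, adjusted p = 1.30e-06), and Rfpl4, which binds oocyte ubiquitin enzymes, was uneven at 44 h, at 139.6, 1043 and 1472 after 5808, 8149.9 and 5441 at 20 h (adjusted p = 6.47e-05). Duxf3, whose protein drives the 2-cell programme, was at 349.5, 247 and 927 at 20 h and 86.1, 142 and 143 at 44 h and did not pass the test (adjusted p = 0.0954). Eif1a, a translation initiation factor, was the member that rose, at 3803, 4404 and 3119.7 at 20 h and 7681, 7772 and 7517 at 44 h, by 1.03 (SE 0.198, adjusted p = 1.86e-04).

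**Figure D2:**
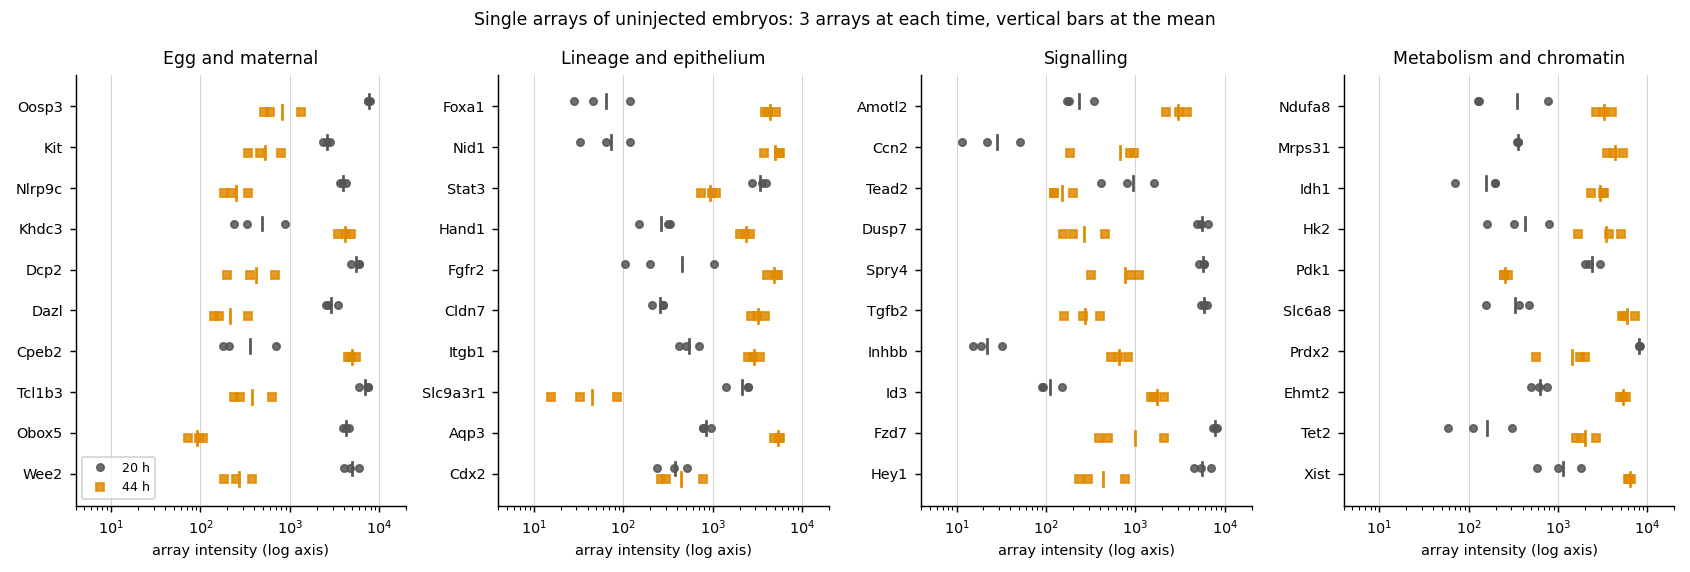
Array intensity (horizontal, log axis) of named genes in 4 panels, with 1 point for each of the 3 arrays at 20 h (grey circles) and at 44 h (orange squares) and a vertical bar at each mean. At 44 h Obox5 and Tgfb2 lie well to the left of their arrays at 20 h, and Foxa1 and Nid1 well to the right of theirs. The arrays of Cdx2 overlap between the times.

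Genes of pluripotency and of the blastocyst lineages held both rises and falls, as did the genes tested at large. Of 33 pluripotency genes tested, 8 (24.2%) rose and 1 fell, 2 without array 2 at 44 h (over the settings, 6 to 10 rises and 1 to 3 falls). The median was 0.29, with 0.09 without array 1 at 20 h and 0.19 without array 2 at 44 h. Pou5f1, which encodes Oct4, was at 6534, 5158 and 5731 at 20 h and 7325, 7523 and 6290.2 at 44 h, and its difference of 0.28 (SE 0.186, adjusted p = 0.3) did not pass the test. Sall4, a zinc finger factor of the same network, gave 0.29 (SE 0.193, adjusted p = 0.296) from bright levels at both times, 7562, 8421 and 7009 and 9407, 9509.9 and 9182. Both were high on all 6 arrays. Nanog, the homeobox factor of this network, was at 138, 433 and 419 at 20 h and 3240.2, 4371 and 3963 at 44 h, a rise of 3.63 (SE 0.528, adjusted p = 3.97e-06). Array 1 at 20 h was the dimmest of its time, all arrays at 44 h were above all at 20 h, and the difference in control-injected embryos was 5.11. None of these 3 genes was targeted in these embryos. Tdgf1, a Nodal co-receptor, was at 812, 304 and 151 at 20 h and 6303, 6749 and 5842 at 44 h, a rise of 4.15 (SE 0.401, adjusted p = 3.62e-09). Stat3, the transducer of LIF signals, was the member that fell, at 2743, 3559.7 and 3920.0 at 20 h and 976, 1103 and 749 at 44 h, a difference of -1.84 (SE 0.352, adjusted p = 1.76e-04). Its other probe sets ranged from -1.79 to 0.50.

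Of 25 trophectoderm genes, 3 (12%) rose and 5 (20%) fell, near the 9.28% and 16.3% of all genes. The falls were 2 without array 3 at 20 h and 3 without array 1 at 20 h or array 2 at 44 h (over the settings, 2 to 4 rises and 2 to 5 falls). Cdx2, the factor that specifies trophectoderm, was at 241, 523 and 368 at 20 h and 266, 781 and 297 at 44 h. Its arrays overlapped and the difference was 0.13 (SE 0.788, adjusted p = 0.927). In control-injected embryos it was -0.27 (adjusted p = 0.866). Uninjected embryos of the Oct4 and Sall4 experiments had Cdx2 called higher. Their arrays stand on a dimmer scale and the 20 h and 44 h groups carry separate experiment labels, so only the direction is compared. Hand1, a later trophoblast factor, was at 148, 317 and 335 at 20 h and 2309, 2642 and 2047 at 44 h, a rise of 3.13 (SE 0.453, adjusted p = 3.74e-06). Fgfr2, the FGF receptor of trophectoderm and primitive endoderm, was at 1042, 201 and 105 at 20 h and 5092, 5322 and 4078 at 44 h. Array 1 at 20 h was its brightest of that time, and the rise was 3.99 (SE 0.671, adjusted p = 3.31e-05).

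Tead4, the partner of Yap needed for trophectoderm, was at 3193, 4272 and 630.5 at 20 h and 7552, 8994 and 6264 at 44 h. The rise of 1.86 (SE 0.680, adjusted p = 0.0417) was lost without array 3 at 20 h (adjusted p = 0.33), which was far dimmer than the others of its time, and without each array at 44 h. Slc2a1, the glucose carrier Glut1, fell by 3.36 (SE 0.614, adjusted p = 9.67e-05), and Arid3a, a trophoblast regulator, from 1306 ± 427 at 20 h to 163 ± 96.0 at 44 h, a difference of -2.96 (SE 0.348, adjusted p = 1.33e-07). Tfap2a, an AP-2 factor, was at 128, 841 and 1696 at 20 h and 101, 52.0 and 39.9 at 44 h, and its fall was lost without array 3 at 20 h (adjusted p = 0.0522).

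Among 17 primitive endoderm genes, 2 (11.8%) rose and 4 (23.5%) fell, against 9.28% and 16.3% of all genes (over the settings, 1 to 3 rises and 1 to 4 falls). Leaving out 1 array moved the falls to 1 without array 3 at 44 h and to 2 without array 1 or 3 at 20 h or array 1 or 2 at 44 h, and the rises to 1 without array 3 at 20 h or array 2 or 3 at 44 h. Gata6, a GATA factor of this lineage, was at 211, 387 and 246 at 20 h and 4789.8, 6293 and 3372 at 44 h, a rise of 4.02 (SE 0.482, adjusted p = 1.86e-07). Its arrays at 44 h were all above those at 20 h, other probe sets gave 2.04 to 4.92, and it was called in 19 of 19 settings. Gata4, of the same family, was at 3692, 2602 and 1215 at 20 h and 2010.2, 1014 and 2347 at 44 h and overlapped between the times (adjusted p = 0.583). Lamb1, a laminin chain, fell by 1.12 (SE 0.413, adjusted p = 0.0437), a call lost without any 1 of 5 arrays, with adjusted p up to 0.168.

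Junction and polarity genes moved both ways: 9 of 53 rose and 10 fell, with a median of 0.02 that was -0.16 without array 3 at 20 h. Cldn7, a tight junction claudin, was at 210.4, 278 and 277 at 20 h and 2716, 3899.6 and 3111 at 44 h, a rise of 3.58 (SE 0.646, adjusted p = 8.24e-05). Itgb1, the shared beta chain of matrix-binding integrins, was at 425, 699.5 and 505 at 20 h and 3377, 2807 and 2482 at 44 h, a rise of 2.40 (SE 0.350, adjusted p = 4.25e-06), but its other probe sets ranged from -0.91 to 2.18. Cdh1, E-cadherin, which holds compacted blastomeres together, was at 2937, 3388 and 2973 at 20 h and 6299, 6008 and 5237 at 44 h. It rose by 0.91 (SE 0.275, adjusted p = 0.0132), and the call was lost over the 18 arrays of the Nanog experiment alone (adjusted p = 0.0751). Itgb1 and Cdh1 were called higher in control-injected embryos. Neither was called in uninjected embryos of the Oct4 and Sall4 experiments, whose arrays stand on a dimmer scale.

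Ctnna1, the alpha-catenin that links cadherins to actin, was bright at both times and gave 0.08 (SE 0.176, adjusted p = 0.794). Pard6g, a subunit of the apical polarity complex, was at 1099.5, 387 and 888 at 20 h and 39.4, 86.5 and 83.1 at 44 h, a difference of -3.17 (SE 0.596, adjusted p = 1.43e-04). Mpp5, also called Pals1, of the Crumbs complex, fell from 4415 ± 734 at 20 h to 1019 ± 413 at 44 h, a difference of -2.18 (SE 0.408, adjusted p = 1.36e-04). Myo10, a filopodial myosin, fell by 2.07 (SE 0.242, adjusted p = 1.15e-07).

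Of 17 genes for ion and water transport, 1 rose and 4 fell (over the settings, 1 to 2 rises and 3 to 4 falls). Aqp3, a water and glycerol channel, was at 782, 784 and 954 at 20 h and 5579.8, 5620.5 and 4895 at 44 h, a rise of 2.65 (SE 0.483, adjusted p = 9.26e-05). Its arrays at each time were close together, and its other probe sets gave 0.04 to 5.06. Slc9a3r1, the scaffold NHERF1 beneath the apical membrane, was at 2509, 2489 and 1402 at 20 h and 15.4, 32.8 and 85.5 at 44 h, a difference of -5.27 (SE 0.641, adjusted p = 2.32e-07). Atp1b1, a beta subunit of the sodium pump, fell from 5677 ± 1248 at 20 h to 2082 ± 894 at 44 h (adjusted p = 0.00241), with other probe sets from -3.91 to 0.58. Atp1b2, another beta subunit, gave 0.98 (adjusted p = 0.439). Cftr, a chloride channel, was at 983, 1864 and 3535 at 20 h and 83.8, 66.0 and 589.8 at 44 h (adjusted p = 0.00123).

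The Hippo list, whose kinases keep Yap out of the nucleus in inner cells, had 9 of 23 members higher (39.1%) and 3 lower (over the settings, 4 to 10 rises and 2 to 3 falls). The median was 0.72, with 0.02 in control-injected embryos and, on a dimmer scale, 0.24 in uninjected embryos of the Oct4 and Sall4 experiments. Over the settings run the median was 0.34 to 0.99, the lowest without array 2 at 44 h, with 0.37 without array 1 at 20 h and 0.48 without array 1 at 44 h. Without array 3 at 20 h, or without any 1 array at 44 h, 5 rose. The largest rises were those of genes that Yap and Tead switch on. Ccn1, a secreted matricellular protein, was at 59.5, 74.8 and 47.0 at 20 h and 1730.3, 366 and 2535 at 44 h, a rise of 3.98 (SE 0.507, adjusted p = 5.00e-07). Array 2 was the lowest of the 44 h arrays and still far above 20 h. Ccn2, of the same family, was at 11.5, 51.0 and 22.0 at 20 h and 955, 882 and 186 at 44 h, a rise of 3.76 (SE 0.416, adjusted p = 4.59e-08), and Amotl2, an angiomotin that holds Yap at junctions, was at 182, 171 and 348 at 20 h and 3771, 3091 and 2209 at 44 h (adjusted p = 1.12e-07). Yap1 itself was bright and fell by 0.48 (SE 0.156, adjusted p = 0.0219), a call lost without array 3 at 20 h or array 1 or 3 at 44 h (adjusted p up to 0.0712). Wwtr1, the Yap paralogue Taz, gave 0.72 (adjusted p = 0.478). Tead2 was at 796, 411 and 1626 at 20 h and 124, 124 and 200.4 at 44 h, a difference of -2.36 (SE 0.569, adjusted p = 0.00212).

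Of 27 FGF and MAP kinase genes, 6 rose and 5 fell, and 3 fell without array 1 or 3 at 20 h or array 2 or 3 at 44 h (over the settings, 4 to 10 rises and 3 to 7 falls). The largest falls were those of feedback inhibitors. Dusp7, a phosphatase of Erk, was at 5443, 4879 and 6477 at 20 h and 200.1, 155 and 453 at 44 h, a difference of -4.43 (SE 0.375, adjusted p = 3.59e-10), with other probe sets at -5.08 to -4.61. Spry4, a Sprouty inhibitor, was at 5164, 5891 and 5880.0 at 20 h and 321, 1097 and 892 at 44 h, a difference of -3.02 (SE 0.488, adjusted p = 1.90e-05). Fgf4, the ligand made by epiblast cells, gave -0.36 (SE 0.603, adjusted p = 0.728) from 2371, 2303 and 2492 at 20 h and 2064, 1448 and 2137 at 44 h, with no call. Fgfr1, an FGF receptor, gave 0.69 (adjusted p = 0.191). Braf, a kinase above Erk, rose by 2.80 (SE 0.613, adjusted p = 7.88e-04), with other probe sets from -0.94 to 1.66.

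Among 36 Wnt genes, 4 rose and 8 fell, and without array 2 at 44 h 2 rose (over the settings, 2 to 5 rises and 6 to 10 falls). Fzd7, a Wnt receptor, was at 8269, 7339 and 7853 at 20 h and 391, 2114 and 492 at 44 h, a difference of -3.36 (SE 0.492, adjusted p = 4.33e-06). Array 2 at 44 h kept several times the signal of the other two, and a second probe set gave 0.05. Axin2, a target and inhibitor of the pathway, was at 3791, 3826 and 5128 at 20 h and 401, 1143 and 1401 at 44 h, a difference of -2.26 (SE 0.537, adjusted p = 0.00181). The ligand gene Wnt3 gave 0.48 (adjusted p = 0.238). Tcf7l2, a nuclear effector, was at 199.99, 307 and 249.6 at 20 h and 2098, 1227 and 1722 at 44 h, a rise of 2.65 (SE 0.730, adjusted p = 0.00663).

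TGF-beta and BMP genes had 4 rises and 10 falls among 35. Tgfb2, a ligand, was at 5808, 5381 and 6251 at 20 h and 403, 262 and 160.2 at 44 h, a difference of -4.41 (SE 0.401, adjusted p = 1.33e-09), with other probe sets at -3.74 to -3.55. Bmp6, another ligand, was at 4500.4, 4069 and 5039 at 20 h and 388, 289 and 214 at 44 h, a difference of -3.90 (SE 0.460, adjusted p = 1.43e-07). Inhbb, a subunit of activin B, went the other way, at 15.3, 32.3 and 18.6 at 20 h and 528, 634 and 822 at 44 h, a rise of 4.16 (SE 0.643, adjusted p = 9.72e-06). Id3, a target of BMP signals, was at 150.3, 91.1 and 92.9 at 20 h and 1491, 2093 and 1609.7 at 44 h, a rise of 3.79 (SE 0.435, adjusted p = 8.48e-08). Nodal was dim on every array, at 115, 320.1 and 202 at 20 h and 355, 348 and 423 at 44 h, and did not pass the test (adjusted p = 0.278). Of 20 Notch genes, 2 (10%) rose and 4 (20%) fell, near the 9.28% and 16.3% of all genes. There were 2 falls without array 1 at 44 h and 1 rise without array 1 or 3 at 20 h or array 1 or 2 at 44 h (over the settings, 1 to 2 rises and 2 to 5 falls). Hey1, a target of Notch, was at 4474, 5437 and 6939.9 at 20 h and 234, 767 and 294 at 44 h, a difference of -3.82 (SE 0.589, adjusted p = 9.56e-06). The receptor Notch1 was at 299, 432 and 325 at 20 h and 543, 729 and 535 at 44 h, a rise of 0.75 (SE 0.268, adjusted p = 0.0369), called in 12 of 19 settings and not without array 1 or 3 at 20 h or array 1 or 2 at 44 h, and Notch2 gave 0.69 (adjusted p = 0.558).

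Of 45 genes for RNA polymerase II and its general factors, 10 fell and 0 rose (1 without array 2 at 44 h), and over the 6 arrays alone 6 fell (over the settings, 0 to 4 rises and 6 to 11 falls). Polr2a, the largest subunit, gave -0.23 (SE 0.322, adjusted p = 0.663) and Polr2b 0.03 (SE 0.185, adjusted p = 0.924), neither called. Taf4, a subunit of TFIID, was at 6131, 8069 and 5967 at 20 h and 1745, 2071 and 2748 at 44 h, a difference of -1.62 (SE 0.202, adjusted p = 3.52e-07). Every array at 44 h was below every array at 20 h, and a second probe set gave -1.78. Of the 31 Mediator subunits, which link activators to RNA polymerase II, 1 rose and 6 fell, with 3 falls without array 2 at 20 h and 0 rises without array 1 at 20 h or array 1 or 3 at 44 h (over the settings, 0 to 2 rises and 3 to 8 falls). Med1 and Med4 gave -0.33 and -0.13 (adjusted p = 0.442 and adjusted p = 0.73). For RNA polymerases I and III, which make ribosomal and transfer RNAs, 0 of 35 rose and 3 fell (over the settings, 0 to 1 rises and 2 to 5 falls). Polr1a and Polr1b gave 0.36 and 0.87 (adjusted p = 0.405 and adjusted p = 0.214).

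Splicing genes tested numbered 65, of which 15 (23.1%) rose and 3 fell, and without array 3 at 20 h 9 rose (over the settings, 8 to 20 rises and 1 to 4 falls). Snrpb, a core protein of spliceosomal particles, was at 353, 234 and 205 at 20 h and 959.7, 2529 and 1166 at 44 h, a rise of 2.39 (SE 0.421, adjusted p = 6.05e-05). U2af1, which reads the 3′ splice site, went from 6611 ± 407 at 20 h to 3168 ± 669 at 44 h, a difference of -1.08 (SE 0.198, adjusted p = 1.03e-04). Snrpa1, of the U2 particle, gave 0.15 (adjusted p = 0.607).

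Of 83 cytosolic ribosomal proteins written for their list, 36 found no match among the genes read here. Of the 46 tested, none fell and 21 (45.7%) rose, 13 without array 3 at 20 h and 40 after quantile normalization (over the settings, 13 to 40 rises and 0 falls). Their levels were high at both times and the median difference was 0.48, or 0.85 after quantile normalization. Rps6, a small subunit protein, was at 1479.8, 1170.0 and 692 at 20 h and 6156, 3886 and 4941 at 44 h, a rise of 2.19 (SE 0.410, adjusted p = 1.33e-04), but a second probe set gave -0.63 and the call was lost on averaging both (adjusted p = 0.153). Rpl4 was at 9057, 10515 and 10120.5 at 20 h and 13099, 13547 and 11986 at 44 h, which did not pass the test (adjusted p = 0.0761), and Rpl6 gave 0.43 (adjusted p = 0.0599). For nucleolar factors of ribosome assembly, 5 of 85 rose and 1 fell (0 without array 2 at 20 h or array 3 at 44 h) (over the settings, 2 to 22 rises and 0 to 3 falls). The rises were 3 without array 3 at 20 h, 2 without array 3 at 44 h and 22 after quantile normalization. The fibrillarin gene Fbl and Nop56, its partner in methylating ribosomal RNA, gave 0.26 and -0.01 (adjusted p = 0.508 and adjusted p = 0.982).

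Translation factors rose at 14 of 49 members (28.6%) and fell at 2, with 8 rises without array 1 at 20 h or array 2 at 44 h, 7 without array 3 at 20 h and 9 without array 1 at 44 h (over the settings, 6 to 24 rises and 2 falls). Eif3d, a subunit of the eIF3 complex, was at 1292, 1508 and 1057 at 20 h and 6025, 5810.1 and 4855 at 44 h, a rise of 2.11 (SE 0.328, adjusted p = 1.08e-05). Eif1ax, an initiation factor, rose by 0.45 (adjusted p = 0.0173, called in 15 of 19 settings and not without array 1 or 3 at 20 h or array 2 at 44 h), and Eif1b gave -0.19 (adjusted p = 0.721). Eef2k, the kinase that slows elongation, was at 7631, 7106 and 7965 at 20 h and 261, 804 and 369.8 at 44 h, a difference of -4.09 (SE 0.845, adjusted p = 4.31e-04), and Eif4e3, a cap-binding paralogue of eIF4E, was at 10750.1, 11091 and 10901 at 20 h and 2065, 3742 and 2546 at 44 h (adjusted p = 2.71e-04). Of 21 tRNA synthetases and their partners, 4 rose and none fell, and 8 rose after quantile normalization (over the settings, 4 to 8 rises and 0 falls). Aimp1, a scaffold of the synthetase complex, was at 1022, 323 and 749 at 20 h and 4957, 5373 and 4505 at 44 h, a rise of 2.94 (SE 0.422, adjusted p = 3.21e-06). The synthetase genes Aars and Cars gave -0.05 and 0.32 (adjusted p = 0.94 and adjusted p = 0.262).

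Mitochondrial genes gave some of the most one-sided counts. In oxidative phosphorylation 33 of 73 genes (45.2%) rose and none fell, with a median of 0.82, with 51 rises after quantile normalization and 1 fall without array 2 at 20 h (over the settings, 26 to 51 rises and 0 to 1 falls). Ndufa8, a complex I subunit, was at 127, 779 and 129 at 20 h and 3209, 3994 and 2638 at 44 h, a rise of 3.67 (SE 0.641, adjusted p = 5.36e-05). Array 2 at 20 h was well above the other two of its time, as it was for Ndufa3, at 82.0, 238 and 85.9 at 20 h and 2808, 2080.0 and 920.0 at 44 h (adjusted p = 1.33e-04). Ndufa1 rose by 1.49 (adjusted p = 0.0021). Ndufa2 was bright at 20 h and did not rise, with a difference of -0.33 (SE 0.168, adjusted p = 0.16).

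In the mitochondrial ribosome 28 of 74 genes (37.8%) rose and 2 fell, with a median of 0.72 (over the settings, 21 to 37 rises and 0 to 2 falls). Mrps31, a small subunit protein, was at 355, 349 and 358 at 20 h and 4159, 5291 and 3542 at 44 h, a rise of 3.53 (SE 0.320, adjusted p = 1.30e-09). Its 3 arrays at 20 h were almost the same. Mrpl36, a large subunit protein, was at 28.1, 91.6 and 45.8 at 20 h and 728, 1372 and 391 at 44 h (adjusted p = 1.01e-06), and Mrpl33 at 163, 1358 and 213 and 3560.2, 4452 and 3479.8 (adjusted p = 6.71e-05). The rise of Mrpl33 was 3.32, and a second probe set gave 0.69. Mrpl1 rose by 2.84 (SE 0.668, adjusted p = 0.00162), a call lost on the mean of all probe sets, and Mrpl2 gave 0.49 (adjusted p = 0.349). Both falls were lost without array 3 at either time: that of Mrpl10 without array 3 at 20 h or at 44 h, and that of Mrps6 without any array but the first at 20 h.

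Import and upkeep of mitochondria had 7 rises and 4 falls among 41, with 4 rises without array 3 at 20 h (over the settings, 3 to 12 rises and 3 to 5 falls). Timm13, an import chaperone, was at 837, 428 and 201 at 20 h and 3108, 2122 and 3332 at 44 h, a rise of 2.70 (SE 0.389, adjusted p = 3.49e-06). Mff, which recruits the fission enzyme, was at 3847, 4625 and 3565 at 20 h and 730.3, 802 and 1371 at 44 h, a difference of -2.08 (SE 0.516, adjusted p = 0.00269). Its other probe sets ranged from -2.41 to 0.09. Opa1, needed for inner membrane fusion, fell by 1.11 (SE 0.323, adjusted p = 0.00997). The factors of mitochondrial DNA transcription and of ribosomal RNA methylation, Tfam and Tfb1m, rose. Tfam rose by 2.44 (adjusted p = 0.00513, called in 17 of 19 settings and not without array 3 at 20 h) and Tfb1m by 1.56 (adjusted p = 0.0312, called in 11 of 19 settings and not without array 3 at 20 h or array 2 or 3 at 44 h).

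The pyruvate dehydrogenase and citrate cycle list had 4 rises and 3 falls among 32 (over the settings, 3 to 7 rises and 2 to 5 falls). Idh1, the cytosolic isocitrate dehydrogenase, was at 199, 197 and 71.0 at 20 h and 3159, 3292 and 2346 at 44 h, a rise of 4.20 (SE 0.724, adjusted p = 4.57e-05). Suclg1, a subunit of succinyl-CoA ligase, was at 158, 216 and 91.5 at 20 h and 1230.1, 1068 and 2234 at 44 h, a rise of 3.15 (SE 0.480, adjusted p = 7.68e-06). Of the pyruvate dehydrogenase subunits, Pdha1 rose by 0.69 (adjusted p = 0.0119, called in 18 of 19 settings and not without array 3 at 20 h) and Pdhb gave 0.06 (adjusted p = 0.859). Pdk1 and Pdk3 are kinases that switch pyruvate dehydrogenase off. Pdk1 was at 1989.7, 2210.0 and 2979 at 20 h and 247, 277 and 248 at 44 h, a difference of -3.12 (SE 0.403, adjusted p = 6.20e-07), with other probe sets from -4.95 to 0.01, and Pdk3 fell from 1423 ± 220.3 at 20 h to 272 ± 137 at 44 h, a difference of -2.41 (SE 0.495, adjusted p = 4.01e-04).

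In glycolysis 6 of 26 rose and 5 fell (over the settings, 3 to 7 rises and 5 to 7 falls). Hk2, the inducible hexokinase of the first step, was at 788, 321 and 160.4 at 20 h and 1674, 5021 and 3704 at 44 h, a rise of 3.12 (SE 0.610, adjusted p = 2.24e-04). Hk2 was called higher in control-injected embryos and was not called in uninjected embryos of the Oct4 and Sall4 experiments. Pkm, the pyruvate kinase of the last step, was at 2280.0, 3129 and 4220.0 at 20 h and 734, 554 and 503 at 44 h, a difference of -2.37 (SE 0.410, adjusted p = 4.84e-05). Pgk1 fell by 1.92 (SE 0.317, adjusted p = 2.54e-05). Slc2a3, the carrier Glut3, overlapped between the times, at 1819.5, 2758 and 658 and 1836, 3215 and 1954 (adjusted p = 0.564).

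Slc6a8, the creatine carrier, had the largest rise among 31 amino acid and related carriers, of which 5 rose and 3 fell (over the settings, 3 to 7 rises and 2 to 6 falls). It was at 157, 368 and 472 at 20 h and 5162, 7167 and 5431 at 44 h, a rise of 4.20 (SE 0.420, adjusted p = 7.39e-09). Slc1a5, a glutamine carrier, was at 2096, 535 and 1494 at 20 h and 94.3, 188 and 134 at 44 h, a difference of -3.01 (SE 0.745, adjusted p = 0.00267). The glutamate carriers Slc1a1 and Slc1a2 gave 0.58 and 0.41 (adjusted p = 0.104 and adjusted p = 0.384). In sterol and lipid synthesis 4 of 34 (11.8%) rose and 4 (11.8%) fell, against 9.28% and 16.3% of all genes. There were 2 rises without array 2 at 44 h and 2 falls without array 1 at 20 h or array 1 or 2 at 44 h (over the settings, 2 to 5 rises and 1 to 6 falls). Insig1, which holds the sterol sensor in the endoplasmic reticulum, was at 7573, 7758 and 8786 at 20 h and 3090.1, 1902 and 2416 at 44 h, a difference of -1.72 (SE 0.212, adjusted p = 2.76e-07). Hmgcs1, of the mevalonate pathway, fell by 0.54 (adjusted p = 0.035, called in 11 of 19 settings and not without array 1, 2 or 3 at 20 h or array 1 or 2 at 44 h) and Mvk, of the same pathway, gave 0.21 (adjusted p = 0.689).

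Of 39 genes for redox balance and one-carbon metabolism, 9 rose and 9 fell, and 5 rose without array 1 at 20 h (over the settings, 5 to 10 rises and 6 to 11 falls). Mthfd1, the cytosolic folate enzyme, was at 301, 225 and 505 at 20 h and 5973, 3119.7 and 5360.1 at 44 h, a rise of 3.77 (SE 0.511, adjusted p = 1.29e-06). Mthfd2, its mitochondrial counterpart, was at 3789, 2712 and 4073 at 20 h and 838, 431 and 1007 at 44 h, a difference of -2.26 (SE 0.442, adjusted p = 2.34e-04). Of the subunits of the enzyme that starts glutathione synthesis, Gclc fell by 1.47 (adjusted p = 0.0166, called in 15 of 19 settings and not without array 2 at 20 h or array 3 at 44 h) and Gclm gave 0.02 (adjusted p = 0.987). Prdx2, a peroxide-reducing enzyme, had equal arrays at 20 h (7984, 8198 and 8083) and was at 565, 1756 and 1994 at 44 h, a difference of -2.67 (SE 0.415, adjusted p = 1.05e-05).

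Among replication genes, 9 of 68 (13.2%, against 9.28% of all genes) rose and 7 (10.3%, against 16.3%) fell, with 4 falls without array 3 at 20 h or array 2 at 44 h (over the settings, 7 to 17 rises and 4 to 9 falls). Tyms, which makes thymidylate, was at 36.1, 273 and 20.5 at 20 h and 2369, 1243 and 1847 at 44 h, a rise of 4.44 (SE 0.958, adjusted p = 6.94e-04). Array 2 at 20 h stood above the other two. In control-injected embryos the difference was 1.54 and did not pass the test. Mcm9, a helicase of meiotic and repair DNA synthesis, was at 3266, 3911 and 5332 at 20 h and 640.0, 404 and 1057 at 44 h, a difference of -2.62 (SE 0.380, adjusted p = 3.77e-06). Mcm2 and Mcm3, of the replicative helicase, gave -0.37 and -0.06 and did not pass the test (adjusted p = 0.3 and adjusted p = 0.918).

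Of 93 cell cycle genes, 7 (7.53%) rose and 17 (18.3%) fell, near the 9.28% and 16.3% of all genes. There were 4 rises without array 1 or 3 at 20 h or array 1 or 2 at 44 h, and 10 falls without array 2 at 44 h (over the settings, 4 to 14 rises and 10 to 20 falls). Rb1, the retinoblastoma protein that restrains entry into S phase, was at 4241, 4629 and 4571 at 20 h and 446, 1136 and 186 at 44 h, a difference of -3.24 (SE 0.582, adjusted p = 7.78e-05), and a second probe set gave -0.34. Cdk4, the kinase that inactivates Rb1, was at 890.2, 687 and 329.9 at 20 h and 2161, 2303 and 1675 at 44 h, a rise of 1.76 (SE 0.344, adjusted p = 2.26e-04). E2f8, a repressor of the E2F family, fell from 2124 ± 429.8 at 20 h to 271 ± 28.9 at 44 h, a difference of -2.88 (SE 0.473, adjusted p = 2.34e-05). Ccna2, a cyclin of S phase and mitosis, was bright and level, at -0.02 (SE 0.132, adjusted p = 0.952), and Ccna1, its germ line paralogue, gave -0.06 (adjusted p = 0.885).

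Among the 32 histones, variants and their chaperones 3 (9.38%) rose and 5 (15.6%) fell, near the 9.28% and 16.3% of all genes, with 3 falls without array 1 or 2 at 20 h (over the settings, 3 to 5 rises and 2 to 6 falls). This list as written held 50 genes, and 18 found no match. H1f4, a somatic linker histone, was at 378, 216 and 421 at 20 h and 2802, 3339.7 and 2258 at 44 h, a rise of 3.02 (SE 0.515, adjusted p = 3.91e-05). H1f8, the oocyte linker histone, was at 2460.2, 1717 and 1273 at 20 h and 644, 1464 and 186 at 44 h. Its difference of -1.60 (SE 0.535, adjusted p = 0.0253) was lost without array 1 or 2 at 20 h or array 3 at 44 h, with adjusted p up to 0.285. H1f2, another linker histone, gave -1.74 (adjusted p = 0.127).

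Of 20 DNA methylation genes, 3 rose and 5 fell. Tet2, which oxidises methylcytosine, was at 58.6, 113 and 304 at 20 h and 2668, 1826 and 1577 at 44 h, a rise of 3.77 (SE 0.625, adjusted p = 2.63e-05), with a second probe set at -0.31. Tet1 rose from 1895 ± 489 at 20 h to 5024 ± 923 at 44 h, by 1.42 (SE 0.358, adjusted p = 0.00319). Uhrf1, which brings Dnmt1 to replicated DNA, was at 2132, 2253 and 2892 at 20 h and 462, 778 and 1178 at 44 h, a difference of -1.66 (SE 0.396, adjusted p = 0.00193). Dnmt1 itself gave -0.24 (SE 0.206, adjusted p = 0.439) and Dnmt3a, a de novo methyltransferase, 0.04 (adjusted p = 0.947).

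Histone modifiers counted 11 rises and 17 falls among 82 (over the settings, 4 to 13 rises and 8 to 19 falls). The rises were 4 without array 1 at 20 h, 7 without array 3 at 20 h or array 2 at 44 h and 5 without array 1 at 44 h, and the falls 11, 10 and 8 without array 1 at 20 h, array 2 at 20 h and array 1 at 44 h. Ehmt2, the G9a methyltransferase of histone H3 lysine 9, was at 502, 759.6 and 612 at 20 h and 5745, 5344 and 4875 at 44 h, a rise of 3.08 (SE 0.533, adjusted p = 4.91e-05). A second probe set of Ehmt2 gave 0.48. Ezh1 and Ezh2, the methyltransferases of the Polycomb complex PRC2, gave -0.95 and -0.09 (adjusted p = 0.129 and adjusted p = 0.774). Of the 65 genes of chromatin remodelling complexes, 7 (10.8%) rose and 9 (13.8%) fell, near the 9.28% and 16.3% of all genes (over the settings, 3 to 13 rises and 6 to 12 falls). Bcl7c, a subunit of BAF remodelling complexes, was at 4278, 3450.4 and 6440.4 at 20 h and 208, 81.8 and 105 at 44 h, a difference of -5.05 (SE 0.443, adjusted p = 6.93e-10), but its other probe sets ranged from -0.83 to 0.26. Smarca2, an ATPase of these complexes, was at 6171, 5883 and 6974 at 20 h and 941, 1621 and 409 at 44 h, a difference of -2.86 (SE 0.504, adjusted p = 6.05e-05).

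Nuclear pore and transport genes counted 10 rises and 5 falls among 55, with 4 rises without array 1 at 20 h, and 5 rises and 3 falls without array 3 at 20 h (over the settings, 4 to 15 rises and 2 to 7 falls). Nup205, of the inner ring of the pore, was at 885, 1178 and 1120.1 at 20 h and 3479, 3225 and 2541 at 44 h, a rise of 1.52 (SE 0.313, adjusted p = 4.09e-04). Of the outer ring, Nup37 rose by 1.36 (adjusted p = 0.0431, called in 10 of 19 settings and not without array 1 or 3 at 20 h or array 1 or 2 at 44 h) and Nup43 gave 0.20 (adjusted p = 0.6). Kpna3, an import adaptor, fell from 8229 ± 868 at 20 h to 3402 ± 719.6 at 44 h, a difference of -1.29 (SE 0.202, adjusted p = 1.16e-05). Of 57 DNA repair genes, 9 (15.8%, against 9.28% of all genes) rose and 10 (17.5%, against 16.3%) fell. The falls were 6 without array 3 at 44 h (over the settings, 6 to 13 rises and 6 to 13 falls). Pms2, a mismatch repair enzyme, was at 4161, 4911 and 3878 at 20 h and 1773, 738 and 862 at 44 h, a difference of -2.03 (SE 0.398, adjusted p = 2.38e-04). Xrcc1, a scaffold of single-strand break repair, was at 321, 289 and 170.0 at 20 h and 1390.0, 1506 and 690.2 at 44 h, a rise of 2.10 (SE 0.495, adjusted p = 0.00167). The damage kinases Atm and Atr gave 0.79 and 0.18 (adjusted p = 0.129 and adjusted p = 0.929).

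Of 27 X inactivation and imprinted genes, 2 (7.41%) rose and 2 (7.41%) fell, against 9.28% and 16.3% of all genes (over the settings, 1 to 6 rises and 1 to 3 falls). The median was -0.44, and -0.62 to 0.21 over the settings. Xist, the RNA that coats the silent X chromosome of females, was at 1787, 581 and 991 at 20 h and 6605, 6114 and 6228 at 44 h, a rise of 2.62 (SE 0.481, adjusted p = 1.03e-04). All 3 arrays at 44 h were near equal, and other probe sets gave 5.01 to 5.27. Tsix, its antisense partner, was dim, at 89.3, 76.2 and 111 at 20 h and 201, 150.1 and 75.7 at 44 h, and did not pass the test (adjusted p = 0.259). Whether these probe sets tell the strands apart was not examined. The sex of the embryos on an array is not given.

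Proteasome genes rose at 18 of 44 members (40.9%) and fell at 3, with 33 rises after quantile normalization (over the settings, 13 to 33 rises and 1 to 3 falls). Psmc4, an ATPase of the 19S cap, was at 2803, 2002 and 1472 at 20 h and 6413, 6294 and 6619.6 at 44 h, a rise of 1.66 (SE 0.359, adjusted p = 7.02e-04). Psma1, of the core particle, rose by 0.83 (adjusted p = 0.00221), and Psma2 gave 0.36 (adjusted p = 0.108). The members that fell were 2 alternative activators and a chaperone. Psme4, the activator PA200 known from spermatids, was at 10032, 10495 and 10932 at 20 h and 4993, 5514 and 5423 at 44 h, a difference of -0.98 (SE 0.184, adjusted p = 1.35e-04), and Psmd5, an assembly chaperone, fell by 0.78 (SE 0.201, adjusted p = 0.00391); over the 6 arrays alone its adjusted p was 0.0544. The ubiquitin ligase list went the other way, with 18 of 49 (36.7%) lower, none higher (1 without array 1 or 2 at 20 h or array 3 at 44 h) and a median of -0.38 (over the settings, 0 to 7 rises and 13 to 20 falls). Siah2, a RING ligase, was at 7967, 8919.7 and 9003 at 20 h and 859, 749 and 748 at 44 h, a difference of -3.43 (SE 0.305, adjusted p = 9.12e-10), and Uchl1, a deubiquitinase abundant in eggs, was at 2696, 1926 and 4359.8 at 20 h and 406, 282 and 149.9 at 44 h (adjusted p = 1.08e-05). The cullin Cul1 fell by 0.42 (adjusted p = 0.0247, called in 13 of 19 settings and not without array 1, 2 or 3 at 20 h or array 3 at 44 h), and Cul2 gave 0.73 (adjusted p = 0.0612).

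Lysosome and autophagy genes rose at 16 of 48 members (33.3%) and fell at 3. Gabarapl1, an Atg8 family protein of autophagosomes, was at 60.8, 117 and 42.2 at 20 h and 3135, 765 and 1494 at 44 h, a rise of 4.20 (SE 0.621, adjusted p = 4.94e-06). Lamp1, a lysosomal membrane protein, was at 2428, 4236 and 1395 at 20 h and 7673, 8076 and 7275 at 44 h (adjusted p = 3.05e-05) and its paralogue Lamp2 rose by 1.38 (adjusted p = 0.00704, called in 16 of 19 settings and not without array 3 at 20 h). Other probe sets of Lamp2 ranged from -1.31 to 1.52. Uvrag, a partner of the autophagy lipid kinase, was at 1275, 1896 and 1956 at 20 h and 112, 137 and 104 at 44 h, a difference of -3.67 (SE 0.558, adjusted p = 7.45e-06), and Atg5 fell by 1.98 (SE 0.432, adjusted p = 7.63e-04) while Atg7 rose by 2.96 (SE 0.611, adjusted p = 4.32e-04). Other probe sets of Atg7 ranged from -0.05 to 2.23.

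Of 50 chaperones, 8 rose and 10 fell, with 5 rises without array 1 or 3 at 20 h or array 1 or 2 at 44 h, and 6 falls without array 3 at 20 h and 4 without array 2 at 44 h (over the settings, 5 to 16 rises and 4 to 12 falls). Cct5, a subunit of the chaperonin that folds actin and tubulin, was at 2714, 3419 and 2689 at 20 h and 7426, 8357 and 7141 at 44 h, a rise of 1.38 (SE 0.181, adjusted p = 7.78e-07). Cct2, of the same complex, rose by 0.55 (adjusted p = 0.0213, called in 14 of 19 settings and not without array 1 or 3 at 20 h or array 1 or 2 at 44 h) and its subunit Tcp1 gave 0.10 (adjusted p = 0.666). Dnajb4, a heat shock protein 40, was at 5707, 5806 and 6087 at 20 h and 887, 348 and 33.5 at 44 h, a difference of -4.54 (SE 0.857, adjusted p = 1.50e-04), with widely spread arrays at 44 h. Hspa1b, an inducible heat shock protein 70, was at 4218, 3546 and 6138 at 20 h and 3214, 443 and 923 at 44 h, and its fall was lost without array 1 or 3 at 20 h or array 2 or 3 at 44 h (adjusted p up to 0.218).

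Immediate early genes fell at 9 of 31 members (29%, against 16.3% of all genes) and rose at 2, with 5 falls over the 6 arrays alone (over the settings, 2 to 3 rises and 5 to 10 falls). Ier5 was at 2992, 2306 and 4698 at 20 h and 90.7, 85.3 and 211 at 44 h, a difference of -4.57 (SE 0.484, adjusted p = 2.16e-08), with other, dimmer probe sets from -0.41 to 0.40. Egr1, a zinc finger factor induced within minutes of a stimulus, was at 2219, 3719 and 2241 at 20 h and 170.4, 356 and 430.4 at 44 h, a difference of -3.08 (SE 0.455, adjusted p = 4.84e-06). Myc was at 243, 225 and 126 at 20 h and 1659, 1129 and 1583 at 44 h, a rise of 2.81 (SE 0.470, adjusted p = 2.98e-05). Fos was at 21.7, 22.4 and 723 at 20 h and 29.8, 24.5 and 26.3 at 44 h, far brighter on array 3 at 20 h than on any other, and did not pass the test (adjusted p = 0.164). Fosb, its paralogue, was at 456, 154 and 1802 at 20 h and 41.0, 82.8 and 129 at 44 h, a difference of -2.50 (SE 0.660, adjusted p = 0.00478), called in 17 of 19 settings and not without array 3 at 20 h.

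Of 22 p53 targets, 1 rose (2 without array 3 at 44 h) and 5 fell (over the settings, 0 to 2 rises and 5 to 6 falls). Ccng2, a cyclin that slows division, was at 2347, 1844 and 1745 at 20 h and 195, 149 and 187 at 44 h, a difference of -3.36 (SE 0.440, adjusted p = 7.59e-07). Cdkn1a, the inhibitor p21, spread widely at 20 h, at 671, 2389 and 6048 against 1147, 2996 and 2270.3 at 44 h, and did not pass the test (adjusted p = 0.92). Mdm2, which degrades p53, gave -0.49 (adjusted p = 0.168). In the Bcl2 and caspase list 5 of 35 rose and 4 fell, with 3 rises without array 1 or 2 at 20 h (over the settings, 3 to 5 rises and 3 to 6 falls). Bad, which promotes cell death, was at 697, 403 and 356 at 20 h and 2155, 1604 and 3136 at 44 h, a rise of 2.21 (SE 0.485, adjusted p = 8.09e-04). Bcl2, a survival gene, gave 0.62 (adjusted p = 0.533). Bcl2l1, which encodes the survival protein Bcl-xL, was at 4137, 4971 and 4238 at 20 h and 726, 2490.4 and 487 at 44 h, a difference of -2.19 (SE 0.546, adjusted p = 0.0029) that was lost over the 6 arrays alone (adjusted p = 0.054). Its other probe sets ranged from -1.50 to 0.43.

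Cytoskeletal genes counted 8 rises and 14 falls among 50, with 3 rises without array 2 at 44 h and 5 without array 1 or 3 at 20 h or array 1 at 44 h (over the settings, 3 to 11 rises and 10 to 16 falls). Fmn2, the formin that moves the meiotic spindle, was at 7938, 7670.2 and 7379.7 at 20 h and 409, 418 and 1351 at 44 h, a difference of -3.60 (SE 0.605, adjusted p = 3.23e-05). Its other probe sets ranged from -2.63 to -0.15. Tubb3, a beta tubulin best known from neurons, was at 2088, 2685 and 3529 at 20 h and 71.1, 58.2 and 168 at 44 h, a difference of -4.68 (SE 0.680, adjusted p = 3.82e-06). Actg1, cytoplasmic gamma actin, was at 1581, 1193 and 2384 at 20 h and 5731, 7354 and 4408 at 44 h, a rise of 1.78 (SE 0.334, adjusted p = 1.38e-04), while Actb gave 0.53 and missed the threshold (adjusted p = 0.0536).

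**Figure D3:**
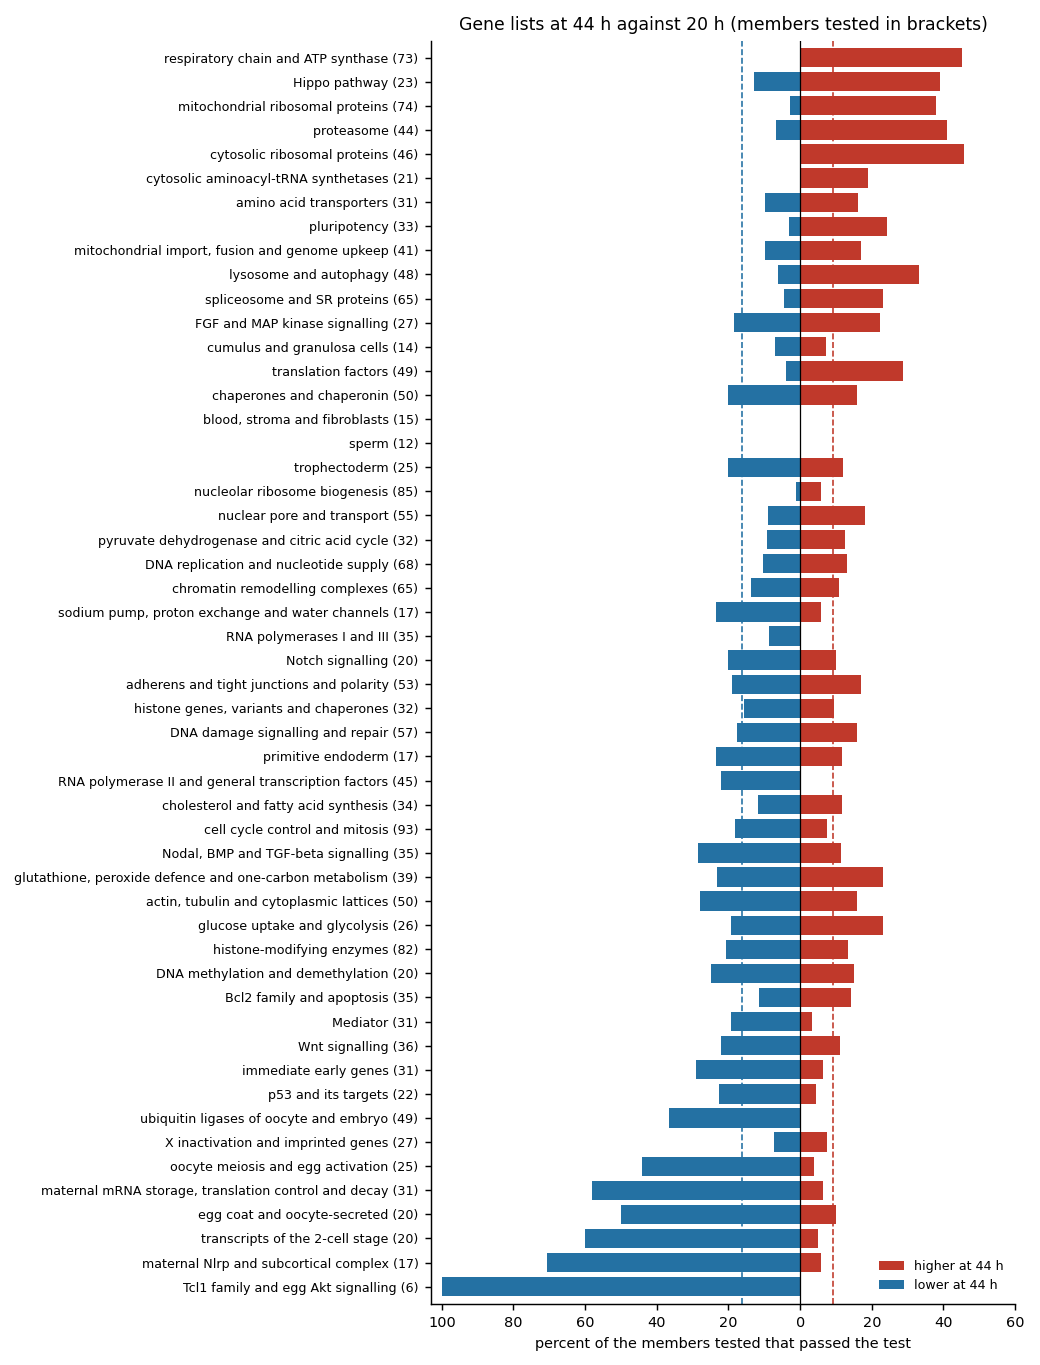
Percent of the tested members of each gene list that passed the test, higher at 44 h to the right (red) and lower to the left (blue), with lists ordered by their median difference and dashed lines at the shares over all genes tested (9.28% and 16.3%). The Tcl1 and Akt list and the maternal Nlrp genes lie farthest to the left, and cytosolic ribosomal proteins and the respiratory chain farthest to the right.

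**Figure D4:**
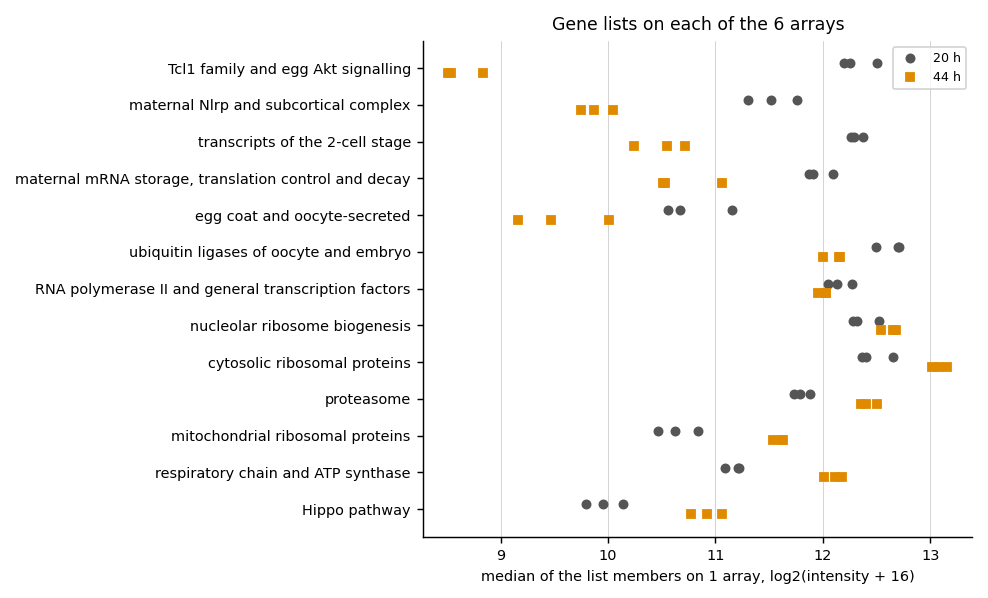
Median over list members of log2(intensity + 16) (horizontal) on each of the 3 arrays at 20 h (grey circles) and the 3 at 44 h (orange squares), 1 row per list. The egg, maternal and 2-cell lists are lower on every array at 44 h, those of the mitochondrial and cytosolic ribosome, the respiratory chain, the proteasome and the Hippo pathway are higher, and those of RNA polymerase II lie close together.

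The same contrast in embryos given the control morpholino, from 6 other arrays, had 3612 genes called (23.3%), 7.17% higher and 16.2% lower at 44 h. Of the 1437 genes that rose in uninjected embryos, 1394 (97.0%) had the same sign there, against 44.4% of all genes with a positive difference, and 767 were called, which is 53.4% of these and 69.2% of the control-injected rises. Of the 2521 that fell, 2487 (98.7%) had the same sign, against 55.6% of all genes, and 1902 were called (75.4% of these and 76.0% of the control-injected falls). In the opposite direction 1 of the rises and 2 of the falls were called. Uninjected embryos of the Oct4 and Sall4 experiments, on 9 arrays whose scaling was dimmer (array medians of the 24 arrays of those experiments from 26.1 to 33.3), had 45.5% of genes called, 20.4% higher and 25.0% lower. There 1108 of the rises (77.1% of them and 35.1% of the rises there) and 2107 of the falls (83.6% and 54.3%) were called in the same direction. In the opposite one 7 and 9 were called.

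**Figure D5:**
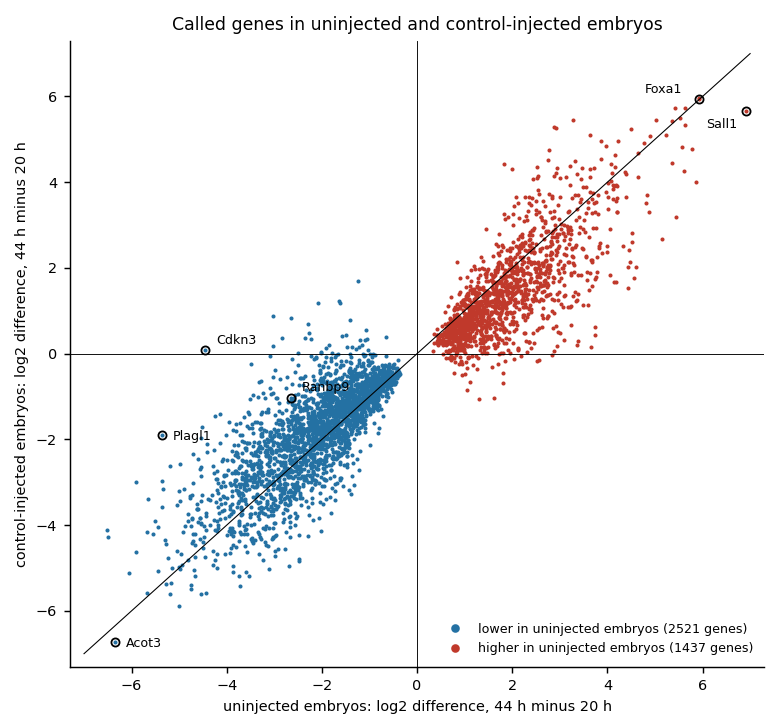
Log2 difference, 44 h minus 20 h, in uninjected embryos (horizontal) and in control-injected embryos (vertical) for the 1437 genes that rose (red) and the 2521 that fell (blue) in uninjected embryos, with the line of equality. Nearly all have the same sign in both, Foxa1 lies on the line, and Cdkn3 lies near 0 in control-injected embryos.

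A test of the difference between both contrasts called 2 genes (0.0129% of those tested), both with a larger fall in uninjected embryos. Neither was called with the replicate block (adjusted p = 0.118 for both). An unadjusted p under 0.05 in limma was met by 779 genes, close to the share of 0.05 that falls there when no gene differs. Cdkn3, a phosphatase of cyclin-dependent kinases, was at 2121, 2368 and 1841 at 20 h and 46.8, 26.9 and 315 at 44 h, a difference of -4.46 against 0.09 in control-injected embryos. Its control-injected arrays spread widely at 20 h, at 1160 ± 981 (SD), and were at 1024 ± 302 at 44 h. Ranbp9, a scaffold that binds the GTPase Ran, was at 4993, 5714 and 5033 at 20 h and 1046, 570.3 and 938 at 44 h, a difference of -2.64 against -1.03. Single genes that were called in uninjected embryos and not in control-injected ones, such as Tyms, are thus not shown to differ between them.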

How the data were processed

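Arrays with 45101 probe sets measured 42 mouse embryo samples, 14 groups of 3. The deposited table holds 1 linear intensity per probe set and array, as the authors gave it. Their normalization steps are not given in the sources used here. Per the labels' protocols, RNA was amplified and labelled with biotin before hybridisation. Nothing was rescaled here. On the 6 arrays values ran from 0.46 to 19420.99 and 10238 were exactly 1. Probe sets with 1 gene symbol (34945) gave 18193 genes, and 932 with several and 9160 with none were left out. A gene was read from its probe set with the highest mean. Genes entered the test when 1 group or more had a mean over 71.15, the table's median, which left 15478.

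Differences in log2(intensity + 16) were tested with limma 3.58.1 in R 4.3.3 over all 42 arrays, residual degrees of freedom 28, with Benjamini-Hochberg adjustment over all genes tested. Groups came from the labels. The test was tested on simulated data. Members, lists and named genes were chosen with earlier results of these data known. Named genes were Pou5f1, Sall4 and Nanog, the 15 largest rises and the 15 largest falls with a brighter group above the median of the 6 arrays, and, per list, the first 2 members and the 3 largest rises and falls among called genes with arrays that did not overlap. Alternatives were the added constant, scaling, filter, probe set rule, samples fitted, array weights, the replicate block and leaving out each array. Promoters came from RefSeq, GRCm38.p6. Tables were made with Python 3.11.15 and pandas 2.3.3.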

Additional observations from a re-analysis of the deposited data

Results flagged for a closer look

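Cdkn3 and Ranbp9 had a different time course in uninjected and control-injected embryos by the test of that difference, which adjusts over 15478 genes. For Cdkn3 the change in uninjected embryos minus that in control-injected ones was -4.55 (SE 0.825, adjusted p = 0.0383). In uninjected embryos its intensity was 2121, 2368 and 1841 at 20 h and 46.8, 26.9 and 315 at 44 h, and array 3 at 44 h held several times the signal of the other two. In control-injected embryos Cdkn3 spread widely at 20 h, at 1160 ± 981 (SD), and was at 1024 ± 302 at 44 h. For Ranbp9 the difference of the changes was -1.61 (SE 0.289, adjusted p = 0.0383), with 4993, 5714 and 5033 at 20 h and 1046, 570.3 and 938 at 44 h in uninjected embryos. Neither was called with the replicate block (adjusted p = 0.118 for both), with 1 added in place of 16, after quantile normalization, over the 18 arrays of the Nanog experiment or over the arrays of the contrast alone.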

How the results depend on the processing

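Of the 3958 genes called, 2332 were called without each array in turn and 1941 under every setting run. The count was 3195 to 3732 without 1 array, 3014 over the 6 arrays alone and 4838 with 64 added before the logarithm. The control-injected count was 2785 to 3228 without 1 array and the Oct4 and Sall4 count 6137 to 6906. Scaling to a trimmed mean moved the median over all genes to 0.11.

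The test of the difference between uninjected and control-injected time courses was the least stable. It called 0 genes (0 lower) with 1 added in place of 16, after quantile normalization, over the 18 arrays of the Nanog experiment and over the arrays of the contrast alone. It called 11 (3 higher, 8 lower) with 64 added, 5 (5 lower) after median centring, and 1 higher and 1 lower on the mean of all probe sets. Without 1 array it called 0 to 9, with 0 to 7 higher (most without control-injected array 2 at 20 h) and 0 to 9 lower (most without control-injected array 1 at 44 h). The cause was not tested.

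The reported fit did not pair arrays by replicate number. Deviations of same-numbered uninjected arrays correlated at 0.114, 0.088 and -0.034, against -0.153 to 0.068 for other numbers. Control-injected arrays gave 0.056, 0.067 and 0.012, against -0.074 to 0.022. Whether the numbers mark pairs was not tested. With the replicate block 4020 genes were called, 3777 of them shared with the fit without it, and the difference of the time courses called 1 (1 lower), which was neither Cdkn3 nor Ranbp9.

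On the mean of all probe sets Cenpa went from -0.65 to 0.20, Polr3e from -0.68 to 0.0016 and Ulk2 from -1.93 to 0.29, where other probe sets of these genes differ in sign. Of the 283 named genes called, 221 were called without each array in turn and 204 under every setting. Of the 52 lists, 20 had a median that changed sign under some setting. Dim genes limit the precision: 3.78% of the values of the 6 arrays were exactly 1.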
